A study of Homo sapiens with 18 samples.

Results

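ER42 and ER47 are 2 human neuroblastoma lines that became resistant to the kinase inhibitor entrectinib in the same experiment, and their transcripts are compared here directly with each other. Both descend from SY5Y_BR6, a derivative of the neuroblastoma line SH-SY5Y that expresses the neurotrophin receptor TrkB. The parental cells were grown under the skin of six-week-old athymic nu/nu mice, the mice received 60 mg/kg entrectinib by mouth every 6 hours, and tumours that had shrunk or stopped growing and then regrew were put into culture. Each of the 2 lines came from 1 such tumour. In culture the drug was raised stepwise, starting at 10 nM and ending at 750 nM, and the cells harvested were growing in 200 nM, so drug, dose, dosing interval and host strain are shared and no contrast with untreated cells is involved. The labels call the cells kept at 200 nM clones and do not say how many clones a library holds. Each line has 3 libraries, 6 of the 18 in the series. Whether they were grown as separate cultures is not stated, so the p-values reflect the variation among the 6 libraries, and this may be technical. Because each line is 1 tumour, a difference between ER42 and ER47 is a difference between 2 individual outgrowths. Genes with at least 1 FPKM (fragments per kilobase of transcript, scaled to the mapped fragments of the library) in 3 or more of the 6 libraries entered the test, which held for 17711 of 63657 gene identifiers. Just inside this limit was COL9A3, with a third-highest value of 1.00019 FPKM, and just outside it GUCA1A, with 0.999971 FPKM.

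Entrectinib blocks Trk kinases, ALK and ROS1. Trk receptors bind neurotrophins and signal through RAS and ERK, and ERK activity in turn switches on transcription of its own phosphatases and of ETS factors. Neuroblastoma cells are known to occupy a noradrenergic, neuroendocrine state with secretory granules and neuronal structural proteins, or a state closer to migrating neural crest and mesenchyme, and cultures can hold intermediates between them.

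The libraries were of similar depth. The most common ratio between the low values of 2 libraries, shared by 148 to 339 of 3348 to 3828 genes, put each library at 0.921 to 1.12 times the depth of ER42 replicate 1, and the sources give no absolute depth. Log2 values correlated across genes, which are not independent replicates, at 0.965 to 0.977 within ER42, 0.971 to 0.978 within ER47 and 0.945 to 0.965 between the lines. Replicate 3 of each line lay nearest to the other line. Among the 1581 genes called higher in ER42 by the test given next, ER42 replicate 3 was the lowest ER42 library in 904 (57.2%), and ER47 replicate 3 was the highest ER47 library in 879 (55.6%). Both of these libraries also held more immediate early transcripts than their partners.

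A gene was called when its limma test, fitted to log2(FPKM + 1) over all tested genes, gave a Benjamini-Hochberg adjusted p under 0.05, which is the adjusted p printed throughout. Of the 17711 genes, 2325 (13.1%) were called, 1581 (8.93%) higher and 744 (4.20%) lower in ER42. The calls comprised 1138 protein-coding genes higher (9.28% of 12268) and 623 lower (5.08%). At least 2-fold differences were found in 349 of the genes called higher and 103 of those called lower. The 3 libraries of ER42 did not overlap those of ER47 in 6419 genes (36.2%), and this held for all 2325 called genes. The excess of higher calls depended on scaling: 68.0% of called genes were higher as deposited, 51.0% after quantile normalisation (1126 higher and 1081 lower) and 55.7% after median-of-ratios scaling (1233 higher and 980 lower). The number of calls depended on single libraries, from 358 without ER42 replicate 2, 376 without ER47 replicate 1 and 607 without ER47 replicate 2 to 1056 without ER42 replicate 1, 2018 without ER47 replicate 3 and 2861 without ER42 replicate 3. With replicate 3 of both lines left out, 3093 genes were called. Of the 929 tested members of the 45 gene lists described below, 175 were called higher and 101 lower, and leaving out 1 library gave 35 to 369 calls in them, with the fewest without ER42 replicate 2 and the most without ER42 replicate 3. Folds are ER42 minus ER47 on the log2(FPKM + 1) scale, which understates the difference of low genes, and are given ± SE. Mean FPKM values of a line are given ± SD of its 3 libraries. The filter admits some genes through 1 line alone, and such a gene had to differ. At least 1 FPKM in all 3 ER42 libraries and in 0 ER47 libraries was found for 261 genes, 156 of them called, and the opposite for 86 genes, 51 of them called. Among list members called, 7 of 276 entered in this way: CACNA1D, NDN and RIMS1 through ER42, and NTRK3, GBP4, RGMA and HSPB8 through ER47. RIMS1, RGMA and HSPB8 were not called without the filter (adjusted p = 0.066, 0.0725 and 0.0615). NCAN and SHANK1 among the 15 highest genes and FAM19A3 and ZIC2 among the 15 lowest also entered through 1 line, as did ZNF454 of chromosome 5. In bulk RNA, fewer cells of a kind and less RNA per cell cannot be told apart.

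The genes that stood furthest above ER47 in ER42 were neuronal and neuroendocrine genes and 2 imprinted genes of chromosome 14. RTL1, an imprinted gene derived from a retrotransposon, had 111, 81.6 and 24.6 FPKM in the ER42 libraries and 3.87, 3.79 and 9.09 FPKM in the ER47 libraries, a fold of 3.33 ± 0.56 (adjusted p = 0.0154). The strand of counting is not given, so RTL1 cannot be told apart from the antisense transcript of its locus. GRM8, a metabotropic glutamate receptor, had 34.1, 24.2 and 10.5 FPKM in the ER42 libraries and 0.917, 1.25 and 1.69 FPKM in the ER47 libraries (3.26 ± 0.38, adjusted p = 0.00657). VGF, the precursor of peptides secreted by neurons and endocrine cells, had 87.0, 76.2 and 24.9 FPKM in the ER42 libraries and 4.30, 3.96 and 7.70 FPKM in the ER47 libraries (3.20 ± 0.46, adjusted p = 0.0109). In all 3 genes ER42 replicate 3 was the lowest ER42 library. It lay above every ER47 library, which the rule that chose these genes requires.
MYT1L, a zinc finger factor that represses non-neuronal genes, had 23.2, 28.5 and 21.6 FPKM in the ER42 libraries and 3.14, 2.19 and 3.52 FPKM in the ER47 libraries (2.69 ± 0.16, adjusted p = 0.00165). INA, the neuronal intermediate filament alpha-internexin, had 33.5, 30.7 and 17.5 FPKM in the ER42 libraries and 3.07, 3.43 and 4.09 FPKM in the ER47 libraries (2.59 ± 0.23, adjusted p = 0.00419). DLK1, the imprinted neighbour of RTL1 and a membrane protein related to Notch ligands, had 585, 425 and 112 FPKM in the ER42 libraries and 45.4, 44.6 and 77.5 FPKM in the ER47 libraries (2.47 ± 0.58, adjusted p = 0.0362). MYT1L was even over the ER42 libraries, whereas DLK1 varied by several fold within ER42 alone.
The granin CHGB (2.33 ± 0.54), the axonal kinesin KIF1A (2.27 ± 0.25), the neuropeptide NPY (2.24 ± 0.19), the RNA-binding protein ELAVL3 (2.19 ± 0.31), the microtubule protein of migrating neurons DCX (2.15 ± 0.28), the postsynaptic scaffold SHANK1 (2.14 ± 0.27), the inhibitor of CaM kinase CAMK2N2 (2.11 ± 0.21) and the proteoglycan neurocan NCAN (2.09 ± 0.17) were also among the 15 highest. Among all 6 lines of the series, ER42 had the highest mean in 9 of these 15 genes and the parental line in the other 6. NPY, INA, DCX, NCAN, CAMK2N2, SHANK1, KIF1A, MYT1L and GRM8 were among those called whichever single library was left out. The fits without 1 library kept the same tested genes, and NCAN and SHANK1 had entered through ER42 alone. RTL1, VGF, DLK1, CHGB and ELAVL3 lost the call without at least 1 library. Of the 15 genes, 11 were still called without ER42 replicate 2, 10 without ER47 replicate 1 and 12 without ER47 replicate 2. The count was 13 without ER42 replicate 1 or ER47 replicate 3, and 15 without ER42 replicate 3. Adjusted p over these fits reached 0.13, in the fit without ER42 replicate 2.

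**Figure D1:**
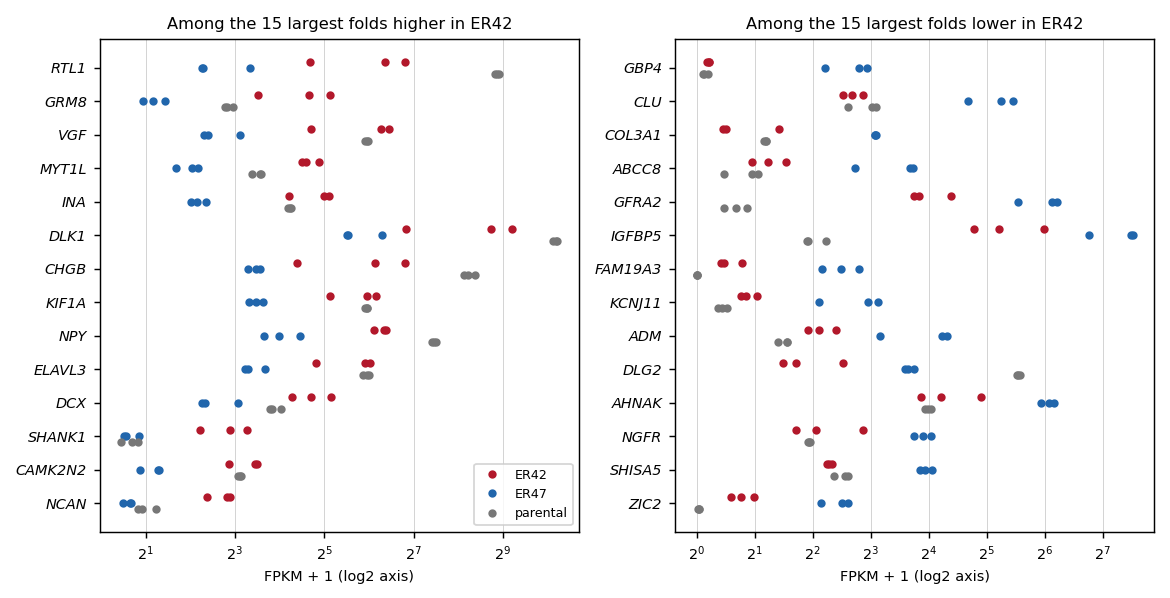
FPKM + 1 in each library (log2 axis, 3 points per line) for 14 of the 15 genes with the largest folds in each direction, with ER42 in red, ER47 in blue and the parental line in grey. By the rule that chose these genes, every ER42 library lies above every ER47 library in the left panel and under every one in the right panel. Over all 15 genes each way, the parental mean lies nearer ER42 in 13 and 14.

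Many genes of secretory granules and peptide hormones were higher in ER42. Of 14 tested members of the list of granins, prohormone enzymes and peptides, 7 were called higher and 1 lower, with a median fold of 0.76, against 0.05 over all tested genes. CHGA, the granin chromogranin A, had 549, 345 and 167 FPKM in the ER42 libraries and 95.9, 88.9 and 87.7 FPKM in the ER47 libraries (1.79 ± 0.38, adjusted p = 0.0266). CHGB had 110.3, 69.0 and 19.95 FPKM in the ER42 libraries and 10.2, 10.8 and 8.76 FPKM in the ER47 libraries (adjusted p = 0.0359). NPY, a neuropeptide stored with noradrenaline, had 82.6, 79.4 and 68.4 FPKM in the ER42 libraries and 11.7, 14.9 and 21.0 FPKM in the ER47 libraries (adjusted p = 0.00371). The ER42 libraries spread over several fold in both granins and little in NPY, and the lowest ER42 library was replicate 3 in each. SCG3, a granin-binding protein of the granule membrane, had 34.3, 29.7 and 15.7 FPKM in the ER42 libraries and 5.61, 5.15 and 6.45 FPKM in the ER47 libraries (1.97 ± 0.26, adjusted p = 0.0092). The called gene in the other direction was ADM, the precursor of the vasodilator adrenomedullin, described below.
Of 12 tested genes of catecholamine handling, 5 were called higher and 1 lower (median 0.15, or -0.03 after quantile normalisation). GCH1, which makes the cofactor of tyrosine hydroxylase, averaged 15.2 ± 5.34 FPKM in ER42 and 5.24 ± 1.06 FPKM in ER47 (1.34 ± 0.24, adjusted p = 0.0187). DDC, the decarboxylase that makes dopamine, had 39.3, 38.8 and 35.0 FPKM in the ER42 libraries and 20.8, 16.7 and 16.7 FPKM in the ER47 libraries (1.03 ± 0.10, adjusted p = 0.00478), even within each line. PNMT, which makes adrenaline, was low in both lines, at 3.89, 2.14 and 2.92 FPKM in the ER42 libraries and 1.13, 0.905 and 0.831 FPKM in the ER47 libraries (1.01 ± 0.19, adjusted p = 0.0209). MAOA, the mitochondrial enzyme that degrades these amines, ran the other way with 23.6, 20.9 and 12.5 FPKM in the ER42 libraries and 43.1, 41.2 and 32.4 FPKM in the ER47 libraries (-1.03 ± 0.22, adjusted p = 0.0301). TH, tyrosine hydroxylase itself, did not reach 1 FPKM in any of the 6 libraries. Of the 11 genes named and called in these lists and among the neuroblastoma markers, DDC, NPY and SCG3 kept the call whichever library was left out. Without ER42 replicate 2, ER47 replicate 1 or ER47 replicate 2, 4, 3 and 4 of the 11 were still called. Without ER42 replicate 1 and ER47 replicate 3 there were 7 and 9, and without ER42 replicate 3 all 11. Adjusted p over these fits reached 0.142, in the fit without ER42 replicate 2.

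The promoters of VGF and CHGA are shown because, of the 5 granule genes called higher with a promoter in the RefSeq table, these 2 hold the motif searched for here. The letters are the 250 bases before the annotated gene start (RefSeq, GRCh38.p14), 5′ to 3′ on the strand of the gene. VGF is at chr7:101165570-101165819 on the minus strand and CHGA at chr14:92922900-92923149 on the plus strand. The cAMP response element, TGACGTCA, is in capitals. It is a palindrome, so both strands give the same match, and no other motif searched overlaps it. Other motifs are not marked here.
VGF: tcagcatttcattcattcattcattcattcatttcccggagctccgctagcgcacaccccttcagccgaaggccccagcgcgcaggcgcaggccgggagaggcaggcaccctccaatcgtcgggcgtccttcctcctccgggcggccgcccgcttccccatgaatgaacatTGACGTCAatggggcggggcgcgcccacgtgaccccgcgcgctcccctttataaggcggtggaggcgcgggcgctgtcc
CHGA: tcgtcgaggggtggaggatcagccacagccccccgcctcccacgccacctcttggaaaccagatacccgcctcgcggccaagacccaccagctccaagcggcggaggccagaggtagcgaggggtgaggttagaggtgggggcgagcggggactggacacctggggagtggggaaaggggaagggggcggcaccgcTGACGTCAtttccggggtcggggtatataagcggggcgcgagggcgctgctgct
The element starts 79 bases before the VGF start and 54 bases before the CHGA start. Among the 17 members of the granin list with a promoter in the table, 5 (29.4%) held TGACGTCA, against 482 of 27303 promoters (1.77%), and among the 5 called higher with a promoter, 2 held it. It was also found in 4 of 28 mitosis promoters (14.3%) and 2 of 31 replication promoters (6.45%). A match describes letters in this window and not a bound site.

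Structural genes of neurons were widely higher in ER42. Of 20 tested members of the list of neuronal cytoskeleton and differentiation genes, 14 were called higher and 0 lower, with a median fold of 0.94. Besides INA and DCX, ELAVL3 had 64.3, 59.5 and 27.3 FPKM in the ER42 libraries and 8.39, 8.84 and 11.8 FPKM in the ER47 libraries (adjusted p = 0.0105), and the growth cone protein GAP43 had 12.8, 9.67 and 5.45 FPKM in the ER42 libraries and 0.927, 1.17 and 1.98 FPKM in the ER47 libraries (2.08 ± 0.30, adjusted p = 0.0105). The other called members were the neurofilaments NEFM and NEFH, the tubulins TUBB3, TUBB2A and TUBB2B, the stathmins STMN2, STMN3 and STMN4, and MAP2 and DPYSL3, which bind microtubules. Of the 4 members of this list that were not tested, NEUROG2 is described further on.
Of 23 tested genes of synaptic vesicles and exocytosis, 11 were called higher and 2 lower (median 0.47). SYT4, a vesicle synaptotagmin, had 38.2, 39.6 and 36.9 FPKM in the ER42 libraries and 7.40, 8.07 and 11.2 FPKM in the ER47 libraries (2.01 ± 0.14, adjusted p = 0.00234), with replicate 3 of ER42 level with the other libraries of the line. UNC13A, which primes vesicles for fusion, averaged 7.83 ± 3.45 FPKM in ER42 and 1.52 ± 0.0461 FPKM in ER47 (1.72 ± 0.30), the active zone scaffold RIMS2 6.39 ± 2.64 FPKM in ER42 and 1.44 ± 0.465 FPKM in ER47 (1.55 ± 0.28), and the vesicle GTPase RAB3C 8.55 ± 2.23 FPKM in ER42 and 2.30 ± 0.708 FPKM in ER47 (1.53 ± 0.22). SYT1 and SYN2 were called in the opposite direction to their relatives SYT4 and SYN1.
Of 15 tested members of the ion channel list 5 were called higher and 0 lower (median 0.51), 4 of them calcium channel subunits. The potassium channel gene KCNJ11, described below, is outside this list and was called lower. CACNA1C, a pore subunit of L-type channels, had 3.73, 4.45 and 4.92 FPKM in the ER42 libraries and 1.12, 1.75 and 1.36 FPKM in the ER47 libraries (1.16 ± 0.15, adjusted p = 0.00904). The pore subunits CACNA1B (0.89 ± 0.23) and CACNA1D (0.86 ± 0.16) and the sodium channel SCN3A (0.74 ± 0.11) were also higher. Of 10 tested cholinergic genes, the nicotinic subunit CHRNB2 was higher (0.85 ± 0.18), and CHRNA7 (-0.78 ± 0.14) and the vesicular acetylcholine transporter SLC18A3 (-0.54 ± 0.14) were lower, with a median of -0.13. INA, DCX, SYT4 and CACNA1C kept the call whichever library was left out. The other 11 of the 15 genes named and called in these 4 lists did not. Of the 15, 5 were still called without ER42 replicate 2, and 7 and 8 without ER47 replicate 1 and 2. There were 10 without ER42 replicate 1, 12 without ER47 replicate 3 and 14 without ER42 replicate 3. Adjusted p over these fits reached 0.15, in the fit without ER42 replicate 2. The count for the neuronal cytoskeleton list was 4 without ER42 replicate 2 or ER47 replicate 1, 6 without ER47 replicate 2, 9 without ER42 replicate 1, 14 without ER47 replicate 3 and 15 without ER42 replicate 3.

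**Figure D2:**
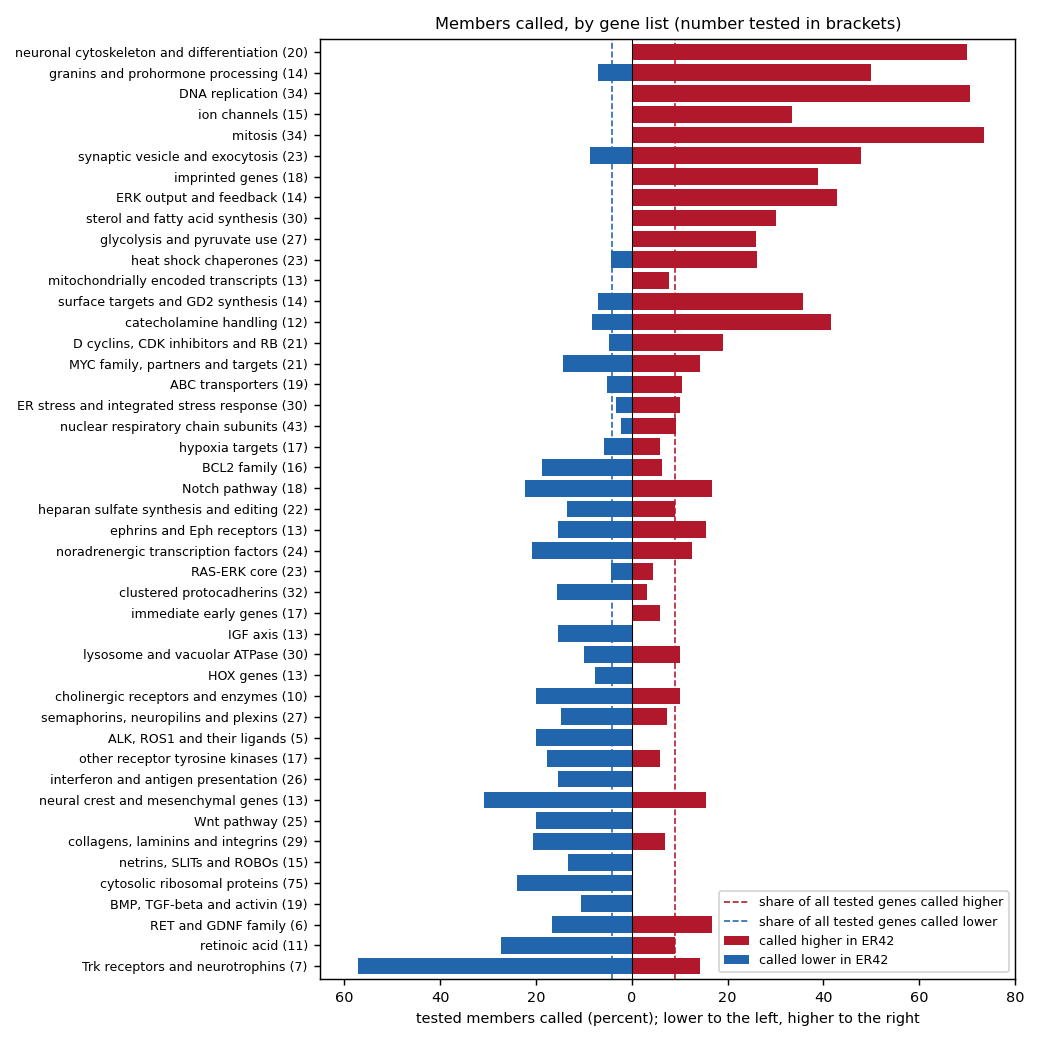
Percent of tested members called higher (red, right) or lower (blue, left) in ER42 for 45 gene lists ordered by median fold, with the number tested in brackets and dashed lines at 8.93% and 4.20% for all tested genes. Mitosis (25 of 34), DNA replication (24 of 34) and neuronal cytoskeleton genes (14 of 20) have the largest shares called higher, and the Trk list (4 of 7) the largest share called lower.

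At the other end, the genes that stood furthest below ER47 in ER42 had varied roles. GBP4, a GTPase induced by interferon, had 0.161, 0.136 and 0.163 FPKM in the ER42 libraries and 5.92, 3.63 and 6.66 FPKM in the ER47 libraries (-2.44 ± 0.20, adjusted p = 0.0225 without the filter). CLU, the secreted chaperone clusterin, had 5.37, 4.77 and 6.34 FPKM in the ER42 libraries and 42.8, 37.0 and 24.7 FPKM in the ER47 libraries (-2.44 ± 0.20, adjusted p = 0.00332). COL3A1, a fibrillar collagen, had 0.373, 0.421 and 1.68 FPKM in the ER42 libraries and 7.47, 7.48 and 7.41 FPKM in the ER47 libraries (-2.28 ± 0.26, adjusted p = 0.00587). GBP4 reached 1 FPKM in ER47 alone and so entered the test through the line where it is high. The resistant lines ER5, ER28 and ER29 averaged 0.0881, 0.530 and 1.11 FPKM for GBP4, 15.5, 20.3 and 67.4 FPKM for CLU and 7.20, 4.17 and 6.60 FPKM for COL3A1, and the parental means were 0.0997, 6.56 and 1.27 FPKM. For COL3A1 ER42 thus had the lowest mean of the 6 lines, with the other resistant lines between it and ER47.
ABCC8 and KCNJ11, neighbouring genes on chromosome 11, encode the 2 subunits of the ATP-sensitive potassium channel and differed together. ABCC8 had 1.90, 1.34 and 0.933 FPKM in the ER42 libraries and 11.8, 12.3 and 5.63 FPKM in the ER47 libraries (-2.14 ± 0.29, adjusted p = 0.00955), and KCNJ11 had 1.05, 0.811 and 0.693 FPKM in the ER42 libraries and 7.70, 6.75 and 3.30 FPKM in the ER47 libraries (-1.84 ± 0.27, adjusted p = 0.0109). ER47 replicate 3 had the lowest value of the ER47 libraries for both.
GFRA2, the receptor for neurturin that presents it to RET, had 12.4, 13.3 and 19.9 FPKM in the ER42 libraries and 68.8, 73.1 and 45.6 FPKM in the ER47 libraries (-1.97 ± 0.22, adjusted p = 0.00587). IGFBP5, a secreted binding protein of insulin-like growth factors, had 26.4, 36.0 and 62.4 FPKM in the ER42 libraries and 182, 179 and 108 FPKM in the ER47 libraries (-1.93 ± 0.33, adjusted p = 0.016). ADM had 4.27, 3.32 and 2.77 FPKM in the ER42 libraries and 17.8, 18.98 and 7.94 FPKM in the ER47 libraries (-1.76 ± 0.31, adjusted p = 0.0175). In IGFBP5 the highest ER42 library and the lowest ER47 library were both replicate 3.
SHISA5, a membrane protein of the endoplasmic reticulum, showed the smallest adjusted p of the 15 lowest, with 3.76, 3.86 and 4.02 FPKM in the ER42 libraries and 15.7, 14.3 and 13.4 FPKM in the ER47 libraries (-1.66 ± 0.09, adjusted p = 0.00144). The secreted protein FAM19A3 (-1.92 ± 0.20), the synaptic scaffold DLG2 (-1.76 ± 0.25), the large scaffold AHNAK (-1.73 ± 0.24), the neurotrophin receptor NGFR (-1.68 ± 0.28) and the transcription factor ZIC2 (-1.64 ± 0.18) were also in this set. In 10 of these 15 genes the parental line had the lowest mean of the 6 lines of the series, and in 3 ER42 had. GFRA2, COL3A1, GBP4, ABCC8, CLU, FAM19A3, AHNAK, SHISA5 and ZIC2 were called whichever library was left out. GBP4, FAM19A3 and ZIC2 among them had entered the test through ER47 alone. Without ER42 replicate 2 and ER47 replicate 1, 10 of the 15 were still called, and without ER47 replicate 2, 11. The calls of all 15 held without each of the other 3 libraries. Adjusted p over these fits reached 0.0923, in the fit without ER47 replicate 1.

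Several factors of migrating neural crest were lower in ER42, although other genes of the same list were higher or overlapped. Of 13 tested members of that list, 4 were called lower and 2 higher (median -0.20, against 0.05 over all tested genes). SNAI2, a repressor active in migrating crest cells, had 2.64, 5.19 and 9.81 FPKM in the ER42 libraries and 21.7, 20.4 and 13.2 FPKM in the ER47 libraries (-1.61 ± 0.38, adjusted p = 0.0374). Its relative SNAI1 had 3.19, 6.36 and 7.80 FPKM in the ER42 libraries and 20.5, 21.2 and 11.7 FPKM in the ER47 libraries (-1.49 ± 0.32, adjusted p = 0.0279). SOX9, a crest and cartilage factor, had 1.25, 2.04 and 3.62 FPKM in the ER42 libraries and 8.73, 8.86 and 6.26 FPKM in the ER47 libraries (-1.49 ± 0.27, adjusted p = 0.0186). In all 3 the ER42 libraries ran over a wide range with replicate 3 highest, and below the lowest ER47 library. CD44, the hyaluronan receptor, had 1.27, 1.25 and 0.468 FPKM in the ER42 libraries and 3.42, 3.42 and 3.16 FPKM in the ER47 libraries (-1.15 ± 0.20, adjusted p = 0.0165), and here ER42 replicate 3 was the lowest library. ZEB2 (0.79 ± 0.12) and TWIST1 (0.29 ± 0.07) were the genes called higher. VIM, the mesenchymal filament vimentin, overlapped between the lines, with 398, 459.9 and 567 FPKM in the ER42 libraries and 479.6, 491 and 685 FPKM in the ER47 libraries. PRRX1 was listed at 0 in all 6 libraries, and RUNX1 and YAP1 stayed below 1 FPKM.
Of 29 tested collagens, laminins and integrins, 6 were called lower and 2 higher (median -0.26). The higher calls numbered 0 after quantile normalisation and 1 after median-of-ratios scaling. Without ER42 replicate 3, 14 were called lower and 1 higher, and without ER42 replicate 2, ER47 replicate 1 or ER47 replicate 2, 1 was called lower and 0 higher. The basement membrane collagens COL4A1 and COL4A2, which are transcribed from a shared promoter region, had 4.41, 4.78 and 7.87 FPKM in the ER42 libraries and 13.9, 15.3 and 13.1 FPKM in the ER47 libraries (-1.21 ± 0.19) and 6.91, 8.27 and 12.5 FPKM in the ER42 libraries and 19.96, 22.1 and 19.3 FPKM in the ER47 libraries (-1.10 ± 0.19). COL6A1 averaged 16.8 ± 2.63 FPKM in ER42 and 29.4 ± 3.07 FPKM in ER47 (-0.78 ± 0.13, adjusted p = 0.0146). The called genes in the other direction were TNC, the matrix protein tenascin C, and ITGB8. Among 22 tested genes of heparan sulfate synthesis and editing, 3 were called lower and 2 higher (median 0.00, or -0.09 after quantile normalisation and -0.04 after median-of-ratios scaling). SULF2, a sulfatase that edits heparan sulfate outside the cell, had 25.9, 26.7 and 46.8 FPKM in the ER42 libraries and 104, 99.0 and 74.8 FPKM in the ER47 libraries (-1.49 ± 0.23, adjusted p = 0.0137). The core proteins differed in opposite directions, with SDC4 lower (-0.997 ± 0.13) and GPC3 (0.74 ± 0.15) and SDC1 (0.52 ± 0.09) higher. COL3A1 and SDC4 kept the call whichever library was left out, and they were the 2 of 12 genes still called without ER42 replicate 2, ER47 replicate 1 or ER47 replicate 2. The count was 10 without ER42 replicate 1 and 12 without either replicate 3. Adjusted p over these fits reached 0.13, in the fit without ER47 replicate 1.

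Signalling pathways of development differed in single components. Of 25 tested Wnt pathway genes 5 were called lower and 0 higher (median -0.21). These were the secreted antagonists SFRP1 (0.949 ± 0.548 FPKM in ER42 and 3.92 ± 0.522 FPKM in ER47, -1.37 ± 0.21) and DKK2 (2.69 ± 0.614 FPKM in ER42 and 6.08 ± 0.370 FPKM in ER47, -0.95 ± 0.14), the receptors FZD7 (-0.91 ± 0.13) and FZD2, and LGR4 (-0.64 ± 0.12), a receptor for R-spondins. Of 18 tested Notch genes 3 were called higher and 4 lower (median 0.02, or -0.08 and -0.03 after quantile normalisation and median-of-ratios scaling). The receptors were lower in ER42: NOTCH3 averaged 15.1 ± 5.17 FPKM in ER42 and 28.4 ± 3.47 FPKM in ER47 (-0.91 ± 0.21), NOTCH1 0.786 ± 0.331 FPKM in ER42 and 2.28 ± 0.389 FPKM in ER47 (-0.89 ± 0.18), and NOTCH2 was also called. HES6, which is expressed in cells that become neurons, was higher at 23.6 ± 6.10 FPKM in ER42 and 12.3 ± 2.39 FPKM in ER47 (0.87 ± 0.20). Of 11 tested genes of retinoic acid signalling, the nuclear receptors RXRA (-1.29 ± 0.18) and RARA (-0.65 ± 0.12) were among the 3 called lower, and STRA6, a membrane receptor of retinol uptake, was higher with 20.5, 33.4 and 29.8 FPKM in the ER42 libraries and 6.81, 10.9 and 13.7 FPKM in the ER47 libraries (1.35 ± 0.26, adjusted p = 0.0218), for a list median of -0.45. Of 19 tested genes of BMP, TGF-beta and activin signalling, LTBP1 (-0.72 ± 0.17), which holds latent TGF-beta in the matrix, and the BMP receptor BMPR1A (-0.40 ± 0.08) were lower and 0 were higher (median -0.38).
The transcription factors that specify noradrenergic identity went both ways. Of 24 tested, 3 were called higher and 5 lower (median -0.02, against 0.05 over all tested genes). TBX2 averaged 77.2 ± 13.1 FPKM in ER42 and 124 ± 16.8 FPKM in ER47 (-0.68 ± 0.14). TFAP2B had 173, 158 and 129 FPKM in the ER42 libraries and 94.5, 90.8 and 85.4 FPKM in the ER47 libraries (0.75 ± 0.11, adjusted p = 0.0117), and EYA1 49.8, 48.9 and 52.8 FPKM in the ER42 libraries and 31.9, 32.8 and 28.3 FPKM in the ER47 libraries (0.69 ± 0.07, adjusted p = 0.00562). EYA1 kept the call whichever library was left out and was the only 1 of the 18 called genes given by the naming rule in these lists that did without ER42 replicate 2. The count was 4 without ER47 replicate 1, 5 without ER47 replicate 2 and 9 without ER42 replicate 1. It was 14 without ER47 replicate 3 and 18 without ER42 replicate 3. Adjusted p over these fits reached 0.13, in the fit without ER42 replicate 2.

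The targets of the drug were among the genes compared. NTRK2, which encodes TrkB, had 264, 229 and 289.8 FPKM in the ER42 libraries and 369.8, 366 and 437 FPKM in the ER47 libraries (-0.58 ± 0.11, adjusted p = 0.0213), lower in all ER42 libraries than in any ER47 library. NTRK3, which encodes TrkC, was at 0.109, 0.0299 and 0.110 FPKM in the ER42 libraries and 1.77, 2.05 and 1.49 FPKM in the ER47 libraries (-1.35 ± 0.15, adjusted p = 0.0225 without the filter). It was low in both lines, and it entered the test because it reached 1 FPKM in ER47 alone. NGFR, the receptor that binds all neurotrophins, had 2.29, 3.15 and 6.33 FPKM in the ER42 libraries and 12.5, 14.0 and 15.4 FPKM in the ER47 libraries (-1.68 ± 0.28, adjusted p = 0.0149). BDNF, the ligand of TrkB, was lower at 3.90, 3.54 and 2.61 FPKM in the ER42 libraries and 5.56, 5.47 and 5.05 FPKM in the ER47 libraries (-0.56 ± 0.14, adjusted p = 0.044). Of the 7 tested genes of the list, 4 were called lower and 1, the sortilin-related receptor SORCS1, higher (median -0.58).
ALK overlapped between the lines, with 72.1, 66.9 and 50.1 FPKM in the ER42 libraries and 72.4, 81.5 and 71.5 FPKM in the ER47 libraries (-0.26 ± 0.13, adjusted p = 0.234), and ROS1 was listed at 0 in all 6 libraries. LTK, the closest relative of ALK, was lower with 1.26, 1.33 and 2.08 FPKM in the ER42 libraries and 4.43, 3.03 and 3.399 FPKM in the ER47 libraries (-0.86 ± 0.18, adjusted p = 0.0269), and it was the 1 called gene of 5 tested in that list (median -0.15). Of 13 tested genes of the IGF axis, IGFBP5 and IGFBP3 were called lower and 0 higher (median -0.04). IGFBP3 had 62.0, 108 and 107 FPKM in the ER42 libraries and 274, 258 and 236 FPKM in the ER47 libraries (-1.501 ± 0.21, adjusted p = 0.00969). Of 6 tested genes of RET and the GDNF family, GFRA2 was lower and the adhesion molecule NCAM1, which can act as a GDNF receptor, was higher (28.1 ± 0.147 FPKM in ER42 and 21.5 ± 1.57 FPKM in ER47, 0.37 ± 0.07), with a median of -0.44. RET itself overlapped, at 26.5, 26.0 and 50.7 FPKM in the ER42 libraries and 43.9, 48.6 and 61.7 FPKM in the ER47 libraries (adjusted p = 0.154).
Of 17 other receptor tyrosine kinases tested, 1 was called higher and 3 lower (median -0.16). EGFR, the receptor of epidermal growth factor, had 19.9, 24.8 and 31.2 FPKM in the ER42 libraries and 13.6, 15.5 and 14.2 FPKM in the ER47 libraries (0.75 ± 0.15, adjusted p = 0.0244). FGFR4 (-0.69 ± 0.17), MERTK (-0.62 ± 0.15) and ROR1 (-0.59 ± 0.11) were lower, and FGFR4 lies in the chromosome 5 segment described below. NTRK3, which entered the test through ER47 alone, IGFBP3 and GFRA2 kept the call whichever library was left out, and of the 13 genes named and called here they were the ones still called without ER42 replicate 2, ER47 replicate 1 or ER47 replicate 2. The count was 7 without ER42 replicate 1, 10 without ER47 replicate 3 and 11 without ER42 replicate 3. Adjusted p over these fits reached 0.142, in the fit without ER47 replicate 1. The call of NTRK2 was lost without ER42 replicate 1 (adjusted p = 0.0528), ER42 replicate 2 (0.0789), ER47 replicate 1 (0.0694) and ER47 replicate 2 (0.0576). MYCN was called when ER42 replicate 3 was left out (adjusted p = 0.0112).

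Several transcripts that ERK induces were higher in ER42, both lines being kept at the same concentration of drug. Of 14 tested genes of ERK output and feedback, 6 were called higher and 0 lower, with a median fold of 0.45. The ETS factor ETV5 had 29.1, 26.7 and 18.3 FPKM in the ER42 libraries and 6.31, 7.29 and 12.2 FPKM in the ER47 libraries (1.44 ± 0.25, adjusted p = 0.0172), and its relative ETV4 had 13.3, 16.3 and 13.4 FPKM in the ER42 libraries and 6.53, 6.30 and 10.3 FPKM in the ER47 libraries (0.84 ± 0.18, adjusted p = 0.0285). ETV5 lies in the chromosome 3 segment described below and ETV4 does not. The phosphatase DUSP4, which switches off ERK in the nucleus, had 22.6, 18.9 and 14.1 FPKM in the ER42 libraries and 5.27, 5.53 and 8.22 FPKM in the ER47 libraries (1.41 ± 0.21, adjusted p = 0.011). DUSP6, which switches off ERK in the cytoplasm, had 44.9, 38.8 and 40.4 FPKM in the ER42 libraries and 20.5, 21.4 and 32.2 FPKM in the ER47 libraries (0.75 ± 0.17, adjusted p = 0.0307). In all 4 genes ER47 replicate 3 was the highest ER47 library and the parental mean lay nearer ER42. SPRY2 and SPRED2, inhibitors of RAS signalling, were the other called genes, and CCND1, the D cyclin that ERK induces, overlapped with 203, 286 and 372 FPKM in the ER42 libraries and 152, 166 and 239 FPKM in the ER47 libraries (adjusted p = 0.141). Of 23 tested genes of the RAS-ERK core only the adaptors SHC3 (3.92 ± 0.647 FPKM in ER42 and 1.34 ± 0.555 FPKM in ER47, 1.09 ± 0.20) and SHC1 (103 ± 13.1 FPKM in ER42 and 143 ± 10.7 FPKM in ER47, -0.47 ± 0.10) were called (median -0.02). None of the 6 genes named and called in these lists kept the call without ER42 replicate 2 or ER47 replicate 1 (adjusted p up to 0.111), 1 did without ER47 replicate 2, 2 did without ER42 replicate 1, and all 6 did without either replicate 3.

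**Figure D3:**
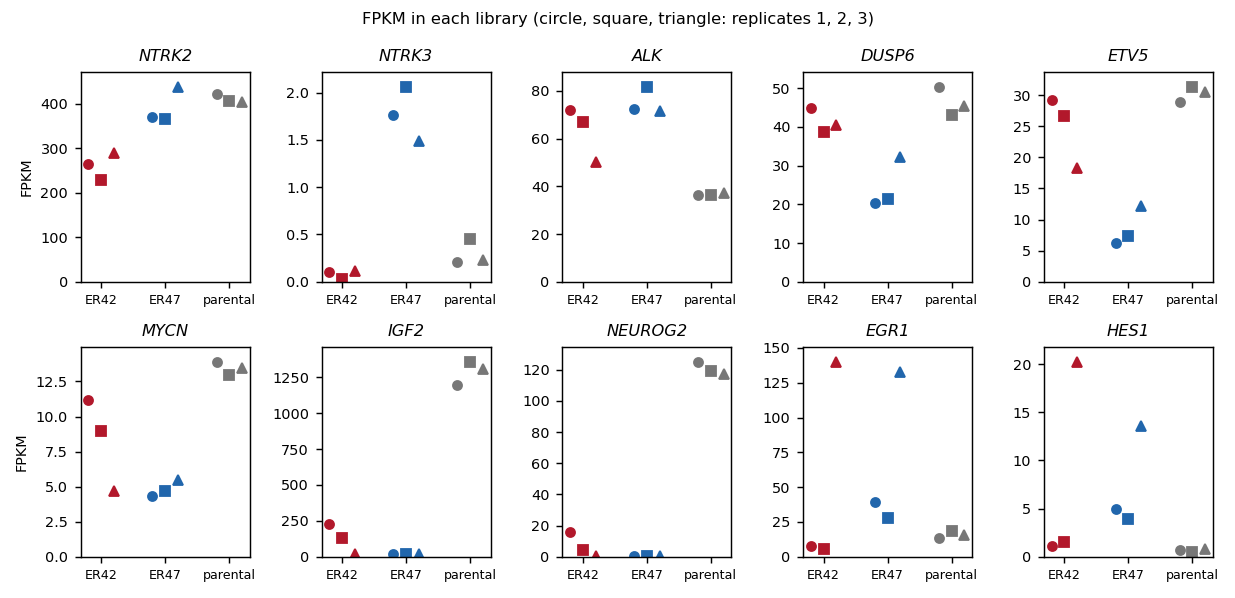
FPKM in each library for drug targets, ERK output genes and genes that varied within a line, by line, with circles, squares and triangles for replicates 1, 2 and 3 and a separate axis from 0 for each gene. NTRK2 and NTRK3 are lower in every ER42 library than in any ER47 library, ALK and MYCN overlap, and EGR1 and HES1 are highest in replicate 3 of both lines.

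Genes of cell division were higher in ER42 than in ER47. All 34 tested genes of DNA replication and all 34 of mitosis had a fold above 0, with 24 and 25 called higher and 0 lower, and medians of 0.54 and 0.50. MCM4, a subunit of the replicative helicase, had 105, 142 and 122 FPKM in the ER42 libraries and 60.9, 57.4 and 74.7 FPKM in the ER47 libraries (0.92 ± 0.13, adjusted p = 0.0113). MCM10, which activates it, averaged 30.1 ± 5.03 FPKM in ER42 and 15.2 ± 3.72 FPKM in ER47 (0.96 ± 0.18), GINS2, another part of the helicase complex, 15.8 ± 2.11 FPKM in ER42 and 8.72 ± 0.390 FPKM in ER47 (0.78 ± 0.11), and the clamp loader subunit RFC4 50.8 ± 5.03 FPKM in ER42 and 29.7 ± 2.39 FPKM in ER47 (0.75 ± 0.09). RFC4 is 1 gene of the chromosome 3 segment described below. Among mitotic genes, MKI67, the proliferation marker Ki-67, had 55.9, 71.1 and 64.7 FPKM in the ER42 libraries and 33.1, 38.6 and 44.6 FPKM in the ER47 libraries (0.71 ± 0.13, adjusted p = 0.0187), and BIRC5, the survivin subunit of the chromosomal passenger complex, 51.3, 56.0 and 48.4 FPKM in the ER42 libraries and 27.2, 28.8 and 36.7 FPKM in the ER47 libraries (0.74 ± 0.12, adjusted p = 0.0142). The checkpoint protein MAD2L1 (0.72 ± 0.14) and the ubiquitin enzyme UBE2C (0.68 ± 0.11) differed by similar amounts. The differences are below 2-fold in every called gene of both lists, and in MCM4, MKI67 and BIRC5 replicate 3 was the highest ER47 library.
Of 21 tested genes of D cyclins, CDK inhibitors and RB partners, 4 were called higher and 1 lower (median 0.14). E2F1 averaged 22.6 ± 2.37 FPKM in ER42 and 12.0 ± 2.54 FPKM in ER47 (0.87 ± 0.15), E2F2 10.4 ± 1.27 FPKM in ER42 and 5.37 ± 1.17 FPKM in ER47 (0.86 ± 0.15) and cyclin E2, CCNE2, 9.77 ± 0.814 FPKM in ER42 and 6.66 ± 1.02 FPKM in ER47 (0.50 ± 0.12). CDKN2A, a CDK inhibitor gene, was lower (-0.48 ± 0.09). Of 21 tested genes of the MYC family, partners and targets, 3 were called in each direction (median 0.12), against 2 higher and 4 lower after quantile normalisation. MYCN overlapped, with 11.2, 8.98 and 4.68 FPKM in the ER42 libraries and 4.33, 4.71 and 5.48 FPKM in the ER47 libraries (0.60 ± 0.27, adjusted p = 0.177). NPM1, a nucleolar protein (527 ± 53.8 FPKM in ER42 and 802 ± 11.7 FPKM in ER47, -0.61 ± 0.09), and the MYC antagonist MXD3 (-0.68 ± 0.09) were lower and both lie in the chromosome 5 segment. LIN28B (0.52 ± 0.13) and the purine enzyme PPAT (0.44 ± 0.09) were higher. MXD3, GINS2 and RFC4 kept the call whichever library was left out. Of the 16 genes named and called here, 5 were still called without ER42 replicate 2, 3 without ER47 replicate 1 and 4 without ER47 replicate 2. There were 12 without ER42 replicate 1 and 15 without either replicate 3. Adjusted p over these fits reached 0.152, in the fit without ER42 replicate 2. In the whole mitosis list 0 genes were called without ER42 replicate 2 or ER47 replicate 1 and 1 without ER47 replicate 2, against 14 without ER42 replicate 1, 23 without ER42 replicate 3 and 29 without ER47 replicate 3. In the replication list these counts were 5, 4, 8, 18, 19 and 28.

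**Figure D4:**
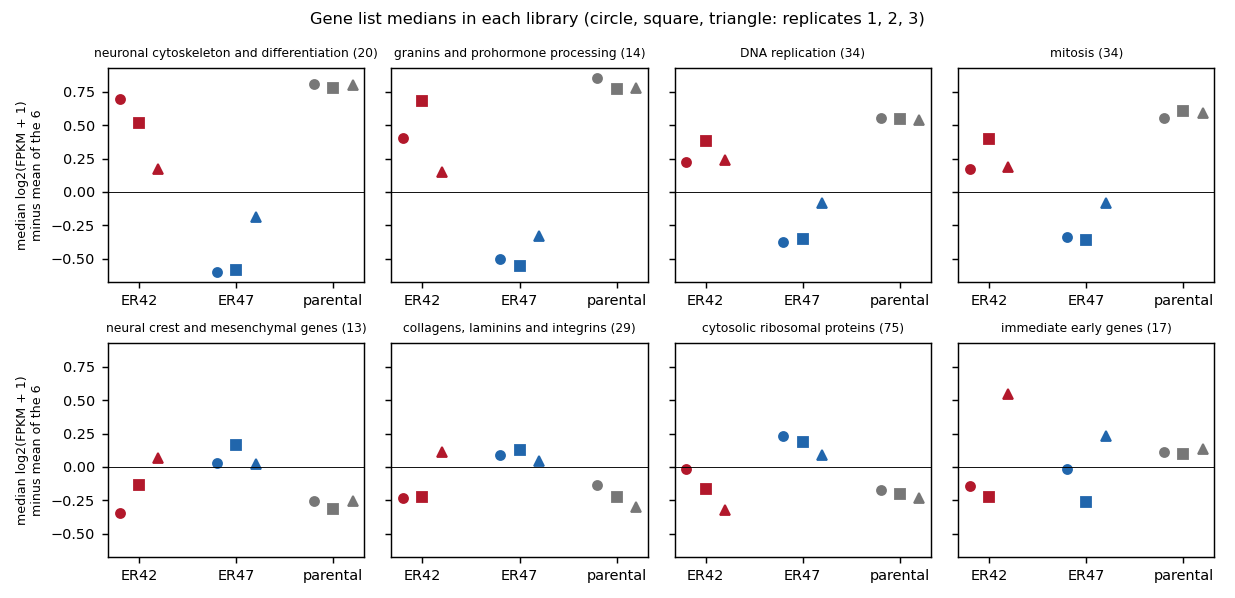
Median over the tested members of 8 gene lists of log2(FPKM + 1) minus the gene's mean over the 6 ER42 and ER47 libraries, for each ER42, ER47 and parental library, with circles, squares and triangles for replicates 1, 2 and 3. Neuronal, granin, replication and mitosis medians are above 0 in every ER42 library and below 0 in every ER47 library, and immediate early genes are highest in replicate 3 of each line.

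The promoter of MKI67 (RefSeq, GRCh38.p14, chr10:128126424-128126673, minus strand, 250 bases before the gene start) is shown because it holds both motifs that many mitotic promoters share. The capitals mark the CCAAT box, on this strand as ATTGG, and the cell cycle homology region, TTTGAA. The last 2 marked motifs share 1 base.
MKI67: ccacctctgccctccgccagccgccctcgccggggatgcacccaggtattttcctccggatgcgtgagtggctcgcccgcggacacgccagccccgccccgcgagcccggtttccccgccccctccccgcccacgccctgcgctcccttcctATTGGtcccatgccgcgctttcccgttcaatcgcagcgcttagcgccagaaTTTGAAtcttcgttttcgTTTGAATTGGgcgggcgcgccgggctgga
Both motifs were searched on both strands. TTTGAA was found in 14 of the 28 mitosis genes with a promoter in the table (50%), against 13.6% of all 27303 promoters, and CCAAT in 20 of 28 (71.4%), against 33.0%. In the 31 replication promoters TTTGAA was found in 1 and CCAAT in 15 (48.4%), and the E2F forms TTTCGCGC and TTTGGCGC were found in 3 each (9.68%), against 0.469% and 0.553% of all promoters. The Snail E-box CAGGTG and the left end of the REST element, TTCAGCACC, were also searched. Of the 9 promoters found for the 15 highest genes and the 7 found for the 15 lowest, 0 held either. Over all promoters the shares were 17.5% for CAGGTG and 0.3% for TTCAGCACC, so with this few promoters a count of 0 tells little. These shares describe the lists and not the difference between ER42 and ER47.

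Some metabolic genes differed in the same direction as the cell cycle genes. Of 27 tested genes of glycolysis and pyruvate use 7 were called higher and 0 lower (median 0.30), with lactate dehydrogenase LDHA at 352, 376 and 263 FPKM in the ER42 libraries and 205, 199.8 and 221 FPKM in the ER47 libraries (0.64 ± 0.13, adjusted p = 0.0262). PDK1, a kinase that keeps pyruvate out of the mitochondrion, averaged 18.5 ± 5.64 FPKM in ER42 and 8.07 ± 0.563 FPKM in ER47 (1.06 ± 0.22), and PFKP (0.53 ± 0.13) and PGAM1 (0.52 ± 0.13) are enzymes of the pathway. Of 30 tested genes of sterol and fatty acid synthesis 9 were called higher and 0 lower (median 0.42). The count was 21 without ER42 replicate 3, 6 without ER47 replicate 3, 3 without ER42 replicate 1, 1 without ER47 replicate 2 and 0 without ER42 replicate 2 or ER47 replicate 1. STARD4, a cytosolic sterol carrier, had 23.9, 18.4 and 13.5 FPKM in the ER42 libraries and 8.02, 7.78 and 7.92 FPKM in the ER47 libraries (1.10 ± 0.18, adjusted p = 0.015), and DHCR7 (0.75 ± 0.12), an enzyme of the last steps of cholesterol synthesis, was higher. Of 17 tested members of the hypoxia target list, 1 was called in each direction (median 0.07). The shares of all tested genes were 8.93% higher and 4.20% lower. LOX, which crosslinks collagen, was higher (2.91 ± 0.205 FPKM in ER42 and 1.30 ± 0.198 FPKM in ER47, 0.77 ± 0.13) and ADM lower. LDHA and PDK1 were counted with the glycolysis genes and not in this list.
Of 23 tested heat shock chaperones 6 were called higher and 1 lower (median 0.28). CHORDC1, a partner of HSP90, averaged 53.1 ± 6.59 FPKM in ER42 and 32.7 ± 1.59 FPKM in ER47 (0.68 ± 0.10), the chaperone HSP90AA1 492 ± 60.2 FPKM in ER42 and 328 ± 21.3 FPKM in ER47 (0.58 ± 0.11) and the mitochondrial chaperonin HSPE1 115 ± 21.0 FPKM in ER42 and 78.0 ± 5.22 FPKM in ER47 (0.54 ± 0.14), and the small chaperone HSPB8 was lower (-0.79 ± 0.17). Of 30 tested genes of endoplasmic reticulum stress and the integrated stress response, the amino acid transporter SLC7A5 (0.62 ± 0.08), ASNS (0.35 ± 0.06) and SHMT2 (0.35 ± 0.08) were called higher and CANX, a chaperone gene in the chromosome 5 segment, lower (-0.68 ± 0.08), with a median of 0.09. The shares called in this list lie near the 8.93% higher and 4.20% lower of all tested genes. CANX and SLC7A5 kept the call whichever library was left out. The naming rule gave 19 called genes in these lists and among immediate early genes. Of these, 2 were still called without ER42 replicate 2, 3 without ER47 replicate 1 and 5 without ER47 replicate 2. There were 8 without ER42 replicate 1, 13 without ER47 replicate 3 and 19 without ER42 replicate 3. Adjusted p over these fits reached 0.165, in the fit without ER42 replicate 2.

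Ribosomal protein genes ran against this pattern. Of 75 tested cytosolic ribosomal protein genes all had a fold below 0, and 18 were called lower and 0 higher (median -0.34, or -0.16 after quantile normalisation, with 17 called lower). The count was 16 without ER42 replicate 1, 14 without ER42 replicate 3, 9 without ER47 replicate 3 and 0 without any 1 of the other 3 libraries. RPS4X had 878, 827 and 739 FPKM in the ER42 libraries and 1367, 1314 and 1174 FPKM in the ER47 libraries (-0.66 ± 0.10, adjusted p = 0.0138), and RPS27A (-0.63 ± 0.10), RPL13A (-0.61 ± 0.11) and RPL41 (-0.59 ± 0.14) followed. These genes have many near-identical processed copies, and how the counting divided reads among them is not given, so their values are uncertain. Of 13 mitochondrially encoded transcripts, all had a fold above 0 and MT-ND6, the 1 subunit encoded on the light strand, was called (1331 ± 56.7 FPKM in ER42 and 873 ± 80.3 FPKM in ER47, 0.61 ± 0.10), for a median of 0.22, and after quantile normalisation 6 were called (median 0.44). Of 43 nuclear subunits of the respiratory chain 4 were called higher and 1 lower (median 0.08, or -0.0054 after quantile normalisation, with 2 higher and 3 lower), with NDUFV2 (0.38 ± 0.07), NDUFB3 (0.37 ± 0.09) and COX6C (0.34 ± 0.07) higher and UQCRC2 (-0.31 ± 0.08) lower. Over all tested genes 8.93% were called higher and 4.20% lower, so the shares of this list do not stand out. Of 30 lysosomal and vacuolar ATPase genes 3 were called in each direction (median -0.08), against 3 higher and 5 lower after quantile normalisation and 1 higher and 5 lower after median-of-ratios scaling. The share called higher as deposited lies near the 8.93% of all tested genes. The lumenal proteins CTSH (-0.85 ± 0.15), a protease, and NPC2 (-0.69 ± 0.17), a cholesterol carrier, were lower. The proton pump subunits ATP6V0E2 (0.44 ± 0.10) and ATP6V1B2 (0.41 ± 0.07) were higher. ATP6V0E1, a pump subunit gene outside this list and in the chromosome 5 segment described below, was called lower (-0.80 ± 0.07, adjusted p = 0.00371).
Of 16 tested genes of the BCL2 family 3 were called lower and 1 higher (median 0.07, or -0.0038 after quantile normalisation). The survival gene BCL2 had 16.8, 19.1 and 36.8 FPKM in the ER42 libraries and 54.5, 57.3 and 47.2 FPKM in the ER47 libraries (-1.17 ± 0.26, adjusted p = 0.0322). The genes for its opponents BMF (11.9 ± 6.77 FPKM in ER42 and 33.5 ± 5.46 FPKM in ER47, -1.53 ± 0.33) and BCL2L11, which encodes BIM (23.9 ± 4.82 FPKM in ER42 and 35.9 ± 3.62 FPKM in ER47, -0.58 ± 0.14), were lower as well. An antisense transcript of BMF was also lower, and without strand the reads of the 2 cannot be told apart. BNIP3L, a receptor for the removal of mitochondria, was higher (0.28 ± 0.07). None of the 17 genes named and called in these 5 lists kept the call without ER42 replicate 2 or ER47 replicate 2. Without ER47 replicate 1, 1 did, and without ER42 replicate 1, 6. There were 11 without ER47 replicate 3 and 16 without ER42 replicate 3. Adjusted p over these fits reached 0.154, in the fit without ER42 replicate 2.

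Surface and guidance genes differed in both directions. Of 14 tested surface targets and enzymes of GD2 synthesis 5 were called higher and 1 lower (median 0.16). L1CAM, an adhesion molecule of axons, had 34.3, 28.2 and 13.8 FPKM in the ER42 libraries and 7.49, 4.82 and 5.82 FPKM in the ER47 libraries (1.84 ± 0.31, adjusted p = 0.0167). ALCAM (0.83 ± 0.15), THY1 (0.68 ± 0.14) and B4GALNT1 (14.5 ± 2.83 FPKM in ER42 and 8.66 ± 1.51 FPKM in ER47, 0.67 ± 0.16), the enzyme that makes GD2 from GD3, were higher. The gene called lower was CD276, which encodes the surface protein B7-H3. Of 13 tested ephrins and Eph receptors 2 were called in each direction (median -0.01). The ligands EFNB2 (20.5 ± 9.84 FPKM in ER42 and 6.63 ± 2.02 FPKM in ER47, 1.401 ± 0.37) and EFNA5 (0.97 ± 0.18) were higher, and the ligand EFNA4 (-0.59 ± 0.12) and the receptor EPHB4 (22.7 ± 4.66 FPKM in ER42 and 38.5 ± 2.59 FPKM in ER47, -0.75 ± 0.14) lower. Of 27 semaphorins, neuropilins and plexins 2 were called higher, among them PLXNA4 (0.47 ± 0.09), and 4 lower, with SEMA5A first (12.1, 13.1 and 13.9 FPKM in the ER42 libraries and 27.5, 31.6 and 18.9 FPKM in the ER47 libraries, -0.92 ± 0.18), then SEMA3F (-0.53 ± 0.13) and SEMA6C (-0.49 ± 0.12) (median -0.14). Over all tested genes 8.93% were called higher and 4.20% lower, so the share called higher here does not stand out. Of 15 netrins, SLITs and ROBOs, 2 were called lower and 0 higher, and the median was -0.26. SLIT3 had 114, 133 and 150.3 FPKM in the ER42 libraries and 219.7, 239.6 and 223 FPKM in the ER47 libraries (-0.78 ± 0.10, adjusted p = 0.00878). It lies in the chromosome 5 segment described below. The guidance molecule RGMA was low in both lines and lower in ER42 (-0.84 ± 0.17).
Of 18 tested imprinted genes 7 were called higher and 0 lower (median 0.47). Besides DLK1 and RTL1, NDN, a growth suppressor of neurons expressed from the paternal copy, had 2.29, 3.27 and 3.31 FPKM in the ER42 libraries and 0.129, 0.301 and 0.135 FPKM in the ER47 libraries (1.73 ± 0.17, adjusted p = 0.0233 without the filter), against a parental mean of 0.0941 FPKM. NDN reached 1 FPKM in ER42 alone and entered the test through it. PEG10 averaged 49.99 ± 6.40 FPKM in ER42 and 22.9 ± 6.10 FPKM in ER47 (1.11 ± 0.18). PEG3, GNAS and KCNQ1OT1 were the other genes called. Of 32 clustered protocadherins 1 was called higher, PCDHGC4 (0.56 ± 0.11), and 5 lower, among them PCDHB13 (-0.56 ± 0.13), PCDHB10 (-0.52 ± 0.09) and PCDHB9 (-0.52 ± 0.10) (median -0.03). These genes are near copies of each other and their values are uncertain. Of 13 HOX genes only HOXD8 was called, lower in ER42 (-0.74 ± 0.14; median -0.10).
Of 26 tested genes of interferon response and antigen presentation 4 were called lower and 0 higher (median -0.19). Besides GBP4, these were the membrane protein IFITM2 (2.06 ± 0.325 FPKM in ER42 and 4.64 ± 0.437 FPKM in ER47, -0.89 ± 0.13), the antigen-presenting HLA-E (-0.83 ± 0.13) and the transcription factor STAT2 (-0.67 ± 0.12). Of 19 ABC transporters 2 were called higher, ABCC9 (0.54 ± 0.14) and ABCC5 (0.53 ± 0.11), and ABCC8 lower (median 0.10), shares near the 8.93% higher and 4.20% lower of all tested genes. NDN, SLIT3, GBP4 and ABCC8, of which NDN and GBP4 entered the test through 1 line alone, kept the call whichever library was left out, and they were the 4 of the 30 genes named and called in these lists that were still called without ER42 replicate 2. Without ER47 replicate 1 and ER47 replicate 2 there were 5 each, and without ER42 replicate 1, 15. There were 24 without ER47 replicate 3 and 27 without ER42 replicate 3. Adjusted p over these fits reached 0.163, in the fit without ER42 replicate 2.

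The folds of genes along the chromosomes showed 2 long segments in which most genes differed the same way. They were found as windows of 25 consecutive tested protein-coding genes, in GENCODE order, whose median fold lay at least 0.5 from the median of all tested genes, with overlapping windows joined. Near the end of chromosome 5, 89 of the 564 tested genes, from HMMR to TRIM52, had a median fold of -0.70. In this segment 69 genes were called lower in ER42 and 3 higher, against 4.20% and 8.93% of all genes. Near the end of chromosome 3, 60 of the 703 tested genes, from VWA5B2 to LRCH3, had a median fold of 0.54, with 41 called higher and 0 lower. After the chromosome 5 segment 0 tested genes remain on the chromosome, and after the chromosome 3 segment 3.
Set against the parental mean, the chromosome 5 genes had medians of -0.48, -0.46 and -0.58 in the ER42 libraries and 0.18, 0.15 and 0.16 in the ER47 libraries. The chromosome 3 genes had medians of 0.35, 0.34 and 0.31 in the ER42 libraries and -0.19, -0.13 and -0.11 in the ER47 libraries. Protein-coding genes outside a segment, taken for each segment on its own, had medians of -0.13 to -0.08 in these libraries. In chromosome 5 both lines thus departed from the other genes and in opposite directions. In chromosome 3 the ER42 libraries did, and the ER47 libraries lay close to the other genes. The libraries of a line lay closer to each other than to any library of the other line in both segments. Because the segments were chosen for a difference between the lines in these same 6 libraries, this separation is no added support.
The largest folds among called genes were those of the homeobox gene MSX2 (2.15, 4.28 and 6.91 FPKM in the ER42 libraries and 14.0, 15.1 and 15.2 FPKM in the ER47 libraries; -1.63 ± 0.30), the zinc finger gene ZNF454 (-1.54 ± 0.15) and the homeobox gene TLX3 (6.84, 6.64 and 7.62 FPKM in the ER42 libraries and 19.2, 17.4 and 14.3 FPKM in the ER47 libraries; -1.15 ± 0.12) on chromosome 5, and of CAMK2N2, ETV5 and LPP (1.37 ± 0.29), which encodes a protein of cell adhesions, on chromosome 3. CAMK2N2, TLX3 and ZNF454 kept the call whichever library was left out, and ZNF454 had entered the test through ER47 alone. ETV5, LPP and MSX2 lost it without ER42 replicate 2, ER47 replicate 1 or ER47 replicate 2 (adjusted p up to 0.105). The windows with the next largest departures, on chromosome 8 from ZNF596 to LONRF1 (-0.36), on chromosome 6 from C6orf62 to HIST1H2BK (0.39) and on chromosome 7 from KLHL7 to CHN2 (0.37), stayed below the limit. DNA copy number was not measured, and its part in these segments was not tested.

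**Figure D5:**
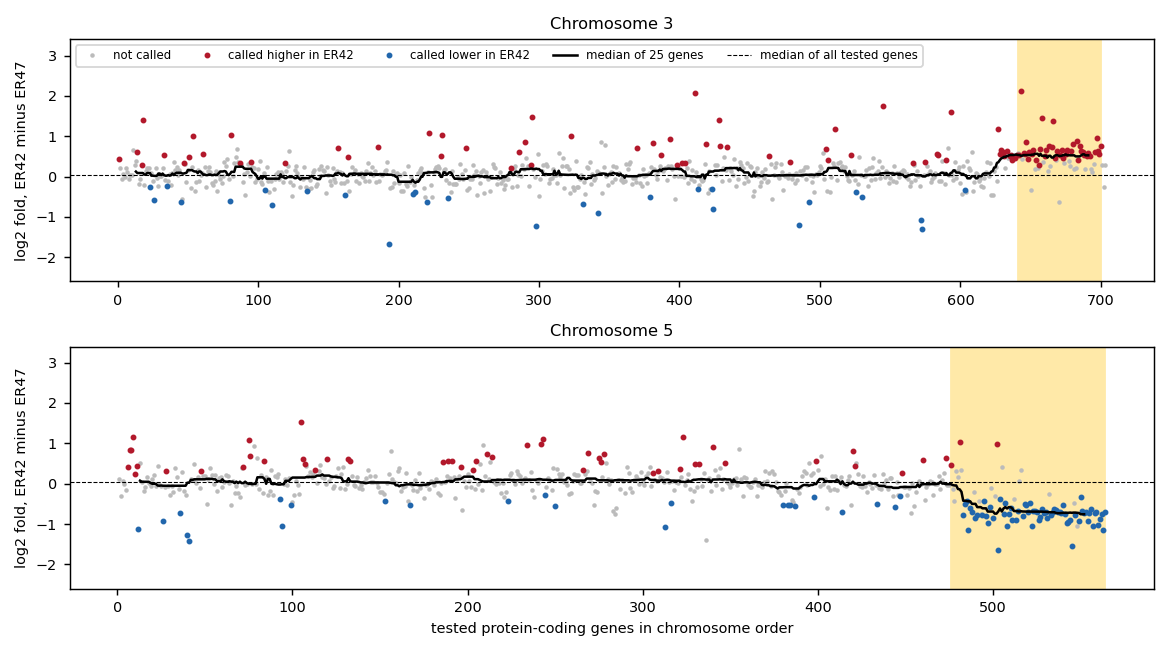
Log2 fold, ER42 minus ER47, of each tested protein-coding gene of chromosomes 3 and 5 in chromosome order, with the median of 25 neighbouring genes as a line, the median of all tested genes dashed and the 2 segments shaded. Genes in the chromosome 3 segment have a median of 0.54 and those in the chromosome 5 segment a median of -0.70.

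For each called gene, the parental mean was placed nearer ER42 or nearer ER47, which does not mean that it equalled either. Of the 1581 genes called higher in ER42, the parental mean lay nearer ER42 in 1039 (65.7%), and of the 744 called lower it did so in 486 (65.3%). In 753 of the 1581 and 320 of the 744 it lay beyond ER42, so that both lines differed from the parental mean in the same direction. The parental libraries are not part of the test, and whether the parental culture held drug is not stated in the labels. For all 24 replication genes, all 25 mitosis genes, all 7 granule genes, all 9 sterol genes, all 7 glycolysis genes and all 6 ERK output genes called higher, the parental mean lay nearer ER42. In 21, 24, 6, 8, 7 and 6 of these, in the same order, the parental mean lay above ER42 as well as ER47. Among other lists this held for 11 of 14 neuronal cytoskeleton genes and 10 of 11 synaptic genes called higher, and for 15 of 18 ribosomal protein genes called lower. Imprinted genes were divided, with 4 of 7 nearer ER42.

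Some genes varied more within a line than between the lines, and they are given here as chosen for that after their values were seen. Of 8396 tested protein-coding genes with at least 10 FPKM in a library, 21 differed at least 4-fold between ER42 libraries and 2 between ER47 libraries. EGR1, an immediate early transcription factor that cells induce within minutes of stimulation, had 8.05, 5.87 and 139.6 FPKM in the ER42 libraries and 39.4, 27.8 and 133 FPKM in the ER47 libraries (adjusted p = 0.455). FOS, another immediate early gene, had 6.03, 6.10 and 83.6 FPKM in the ER42 libraries and 28.8, 17.6 and 85.4 FPKM in the ER47 libraries (adjusted p = 0.477). HES1, a repressor induced by Notch, had 1.16, 1.54 and 20.2 FPKM in the ER42 libraries and 4.94, 3.89 and 13.6 FPKM in the ER47 libraries (adjusted p = 0.666). In all 3 genes replicate 3 was the highest library of both lines, and replicate 3 of ER42 lay close to or above replicate 3 of ER47. Of 17 tested immediate early genes, replicate 3 was the highest of its line in 11 for ER42 and 13 for ER47, and only IER5 was called, higher in ER42 (13.4 ± 0.807 FPKM in ER42 and 9.04 ± 0.447 FPKM in ER47, 0.52 ± 0.08; list median -0.03).
IGF2, the ligand of the IGF1 receptor, had 227, 134 and 22.3 FPKM in the ER42 libraries and 17.6, 18.02 and 18.3 FPKM in the ER47 libraries (adjusted p = 0.0899), so that ER42 replicate 3 lay almost at the level of ER47 and ER42 replicate 1 more than 10 times above it. NEUROG2, a proneural factor, had 15.8, 4.06 and 0.267 FPKM in the ER42 libraries and 0.209, 0.267 and 0.421 FPKM in the ER47 libraries, and since it reached 1 FPKM in only 2 libraries it was not tested. The parental mean was 1286 FPKM for IGF2 and 120.4 FPKM for NEUROG2, above every library of both lines. What this spread goes with was not tested.

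Markers of blood and endothelial cells summed to a few FPKM, and those of fibroblasts to more. Of 10 macrophage and leukocyte markers 0 passed the filter, TYROBP, AIF1 and CD3E were listed at 0 in all 6 libraries, and the 10 summed to 2.16 to 2.99 FPKM in ER42 and 1.5002 to 2.75 FPKM in ER47. Of 8 endothelial markers 1 passed and was not called (fold -0.33), PECAM1 was at 0, and the sums were 2.13 to 2.73 FPKM in ER42 and 2.68 to 3.85 FPKM in ER47. Of 10 fibroblast markers 6 passed (median 0.23) and POSTN was at 0, and the sums were 63.8, 65.5 and 104 FPKM in ER42 and 66.4, 67.7 and 70.2 FPKM in ER47. COL3A1 was the fibroblast marker called lower and THY1 the one called higher. Of 12 Schwann and glial markers 3 passed, CDH19 and FABP7 were at 0 (median 0.11, or -0.07 after quantile normalisation), and PMP22, a myelin protein also made by other cells, was called lower (-0.70 ± 0.16), with sums of 12.4 to 20.6 FPKM in ER42 and 20.6 to 24.1 FPKM in ER47. Neuroblastoma markers were abundant in both lines, at 1775 to 2380 FPKM in ER42 and 1717 to 1863 FPKM in ER47, with CHGA, CHGB and NCAM1 higher and PHOX2A lower (372 ± 20.5 FPKM in ER42 and 497 ± 54.8 FPKM in ER47, -0.41 ± 0.10) among 11 tested (median 0.14, or -0.03 after quantile normalisation). The part of other cell types in the results, mouse cells included, was not tested.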

How the data were processed

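RNA of cultured ER42 and ER47 cells was extracted with the Qiagen AllPrep kit and made into ribosomal-RNA-depleted libraries with the KAPA RNA HyperPrep kit with RiboErase, sequenced on Illumina HiSeq and NextSeq instruments, per the labels' protocols, which do not say which instrument read which library. The values are FPKM per gene as deposited by the authors. STAR 2.5.3, featureCounts from Subread 1.5.0-p1, STAR-Fusion and build hg19 are named in the submitters' processing notes. Not given in the sources used here are the tool that made FPKM, the library totals and whether strand was used. Therefore no counting interval is given, overlapping and antisense genes cannot be told apart, and near-identical copies are uncertain. Gene symbols and gene order come from GENCODE 29, which is of another build, so no gene coordinates are given. Symbols for NEFL, ACACA and PCDHGB5 were not matched. An exact 0 can be a failed estimate: 45 genes were listed at 0 in a library while the median of the 6 was at least 10 FPKM.

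Genes with at least 1 FPKM in at least 3 of the 6 libraries were fitted as log2(FPKM + 1), with a pseudocount of 1, in limma 3.58.1 (R 4.3.3) with an intensity trend, using the 6 libraries and no covariate, and p-values were adjusted by Benjamini-Hochberg over all 17711 genes. For a single gene, the smallest p an exact permutation test of 3 against 3 libraries allows is 0.1, so the fit over all genes was used. The procedure was checked on simulated data. Tables were handled with pandas 2.3.3 and numpy 2.4.6. Named genes are the 15 highest and 15 lowest called protein-coding genes whose libraries do not overlap, up to 4 called genes of each of 50 lists, up to 3 called genes of each chromosome segment, and NTRK2, NTRK3, ALK, ROS1 and MYCN. Other genes named, such as VIM, TH, RET, CCND1, ZEB2, TWIST1, IGF2, NEUROG2, EGR1, FOS and HES1, and called list members given by name only, were chosen after their values were seen. The comparison and the lists were chosen with earlier results of these data known. Promoter letters are those of the RefSeq table for GRCh38.p14. Some genes that the rule names are not reported here.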

Additional observations from a re-analysis of the deposited data

How the results depend on the processing

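The direction of every named gene was kept in each of the 18 alternatives in which it could be fitted. Without the filter on low values 508 genes were called (314 higher, 194 lower), and with all 18 libraries of the series in the fit 3824 (1494 lower). With array weights 4525 were called (2920 higher, 1605 lower), the weights being 0.79, 2.22 and 0.51 for ER42 and 1.07, 1.48 and 0.71 for ER47. Leaving out 1 library at a time gave 358 to 2861 calls (227 to 1848 higher, 122 to 1013 lower), and 294 genes were called each time. With replicate 3 of both lines left out, a choice made after seeing the data, 3093 were called. Quantile normalisation shifted the median of all genes from 0.05 to -0.02 and shared 1854 calls with the values as deposited, and median-of-ratios scaling shared 1977. The causes of these changes were not tested. Floors, pseudocount, trend and gene class moved the total by less than 1.5 times.

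A fit with the replicate number as a replicate block called 774 genes (527 higher, 247 lower), and 92 of 178 named genes kept their side of the threshold under the replicate block. Same-numbered libraries of the 2 lines deviated from their line means with correlations of 0.08, -0.06 and -0.05. Such correlations over all tested genes cannot settle whether same-numbered libraries were handled together, and the labels do not say. With 3 libraries of 1 outgrowth per line, the spread between cultures is unknown, and differences of low genes are limited by unknown depth.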

Other observations

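Processed pseudogenes and small nuclear RNA genes were called higher in ER42 more often than all tested genes were, and antisense and long intergenic transcripts were not. Of 1093 tested processed pseudogenes 146 (13.4%) were called higher and 9 (0.823%) lower, and of 49 small nuclear RNA genes 12 (24.5%) higher and 0 lower, against 8.93% and 4.20% of all 17711 tested genes. Of 1521 antisense transcripts 86 (5.65%) were called higher and 33 (2.17%) lower, and of 716 long intergenic transcripts 59 (8.24%) higher and 27 (3.77%) lower. After quantile normalisation the higher and lower calls were 88 and 12 for processed pseudogenes, 9 and 0 for small nuclear RNA genes, 65 and 61 for antisense and 45 and 38 for long intergenic transcripts, against 6.36% higher and 6.10% lower over all genes. These shares are descriptions with no test of the difference between classes. MIR137HG, the host transcript of the neuronal microRNA miR-137, had 31.9, 29.1 and 9.46 FPKM in the ER42 libraries and 2.05, 3.78 and 4.83 FPKM in the ER47 libraries (2.31 ± 0.45, adjusted p = 0.0226 by limma). LINC01116 had 16.2, 12.0 and 11.6 FPKM in the ER42 libraries and 36.1, 33.8 and 23.7 FPKM in the ER47 libraries (-1.17 ± 0.18, adjusted p = 0.0136 by limma). AC007563.2, an antisense transcript, had 5.76, 8.04 and 11.2 FPKM in the ER42 libraries and 32.3, 30.8 and 20.2 FPKM in the ER47 libraries (-1.64 ± 0.25, adjusted p = 0.0127 by limma). For MIR137HG every ER42 library lay above every ER47 library, and for LINC01116 and AC007563.2 every ER42 library lay below. Since the use of strand is not given, antisense transcripts cannot be told apart from their partners, and the values of processed pseudogenes can hold reads of their parent genes.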
